A study of Mus musculus with 14 samples.

Results

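Amino acid and neurotransmitter carriers of the Slc1, Slc3, Slc6, Slc7, Slc36 and Slc38 families were followed across 3 cell populations sorted from injured mouse liver. The genes were taken by symbol: every symbol of these families in the deposited expression table, with 1 Slc7 gene left out and with the transcript row of highest mean level where a symbol had several. This gave 58 of 20377 symbols, of which 57 are carrier genes and 1, Slc7a6os, carries the name of its neighbour Slc7a6 without being a carrier. By family there were 7 genes of Slc1, 2 of Slc3, 19 of Slc6, 15 of Slc7 (Slc7a6os among them), 4 of Slc36 and 11 of Slc38.

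The animals were adult C57BL/6 mice whose livers were chimeric, with red-marked (mTomato) mature donor hepatocytes in a host liver. All groups, hepatocytes included, had been fed the toxicant DDC at 0.1% over 5 to 8 weeks, which injures bile ducts and provokes a ductular reaction, so an uninjured liver is not among the groups. Ductal cells were collagenase-released and sorted as positive for the surface antigen MIC1-1C3, low in side scatter and negative for CD11b, CD26, CD31 and CD45. The red cells of this gate are called hepatocyte-derived ductal cells (5 libraries) and the unmarked ones cholangiocyte-derived ductal cells (5 libraries). Hepatocytes made up the third group (4 libraries). Origin therefore rests on the red marker alone, the host genotype is not given in the labels, and host hepatocytes, which carry no mark, cannot be told by the marker from other host cells. Nothing in the labels says whether each library is a separate mouse, so the p-values speak only of how these libraries vary, and part of that spread may be technical.

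Amino acids cross membranes through carrier families that differ in their driving ion and in the amino acids they accept. Slc1, Slc6 and most Slc38 carriers at the cell surface use the sodium gradient, Slc36 carriers use protons, and Slc7 light chains of the heteromeric type exchange amino acids and need a heavy chain of the Slc3 family to reach the membrane. In the liver, hepatocytes take up glutamine, alanine, arginine and glycine from portal blood for urea, glucose and glutathione synthesis, while bile duct cells recover amino acids and related solutes from bile and regulate their own volume with organic osmolytes such as taurine.

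Markers followed the labels: 10 of 10 hepatocyte markers were lower and 12 of 12 biliary markers higher in each ductal group than in hepatocytes. Hepatocyte markers summed to 5102 to 9953 RPKM in the hepatocyte-derived ductal libraries, 3165 to 4612 in the cholangiocyte-derived ones and 47573 to 65615 in hepatocytes, and the share of the carrier values that comes from such transcripts was not tested. The hepatocyte library numbered 118 stood apart, with macrophage markers summing to 1547 RPKM and endothelial markers to 330.3 RPKM, against 31.8 to 42.3 and 11.5 to 28.2 in the other 3 hepatocyte libraries. Macrophage markers summed to 436, 50.5, 299, 222 and 244 RPKM in cholangiocyte-derived libraries 118, 219, 220, 225 and 611, and to 25.6 to 172 in the hepatocyte-derived libraries. Stellate cell and fibroblast markers summed to 983 to 1634, 536 to 949.8 and 11.5 to 165 RPKM in the 3 groups in the same order, most of it Rgs5 in the ductal groups (means of 1399, 580 and 11.6 RPKM), a pericyte gene singled out after its values were seen. The list as a whole had another order: 9 of its 10 tested markers were higher in cholangiocyte-derived cells than in hepatocytes and 1 in hepatocyte-derived cells, and 6 were lower and 1 higher in hepatocyte-derived than in cholangiocyte-derived cells (median log2 difference -1.75). The part of any of these other cells in the results was not tested. Depth estimated from the steps between low values was 23100000 to 31700000 reads per library, and 1 RPKM of a carrier transcript of median length then stands for 76.8 to 105 reads.

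Levels are given in RPKM, reads scaled to transcript length and library size, so that genes can be compared per length. In each sentence the libraries are listed in the order 219, 220, 225, 248 and 611 for hepatocyte-derived ductal cells, 118, 219, 220, 225 and 611 for cholangiocyte-derived ductal cells and 118, 225, 248 and 611 for hepatocytes. Differences are log2 fold changes on the log2(RPKM + 1) scale from limma, fitted to the 12638 symbols that reached 1 RPKM in 4 or more libraries, and a gene was called at a Benjamini-Hochberg adjusted p under 0.05. In such bulk samples, fewer cells carrying a transcript and less transcript per cell cannot be told apart.

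**Figure D1:**
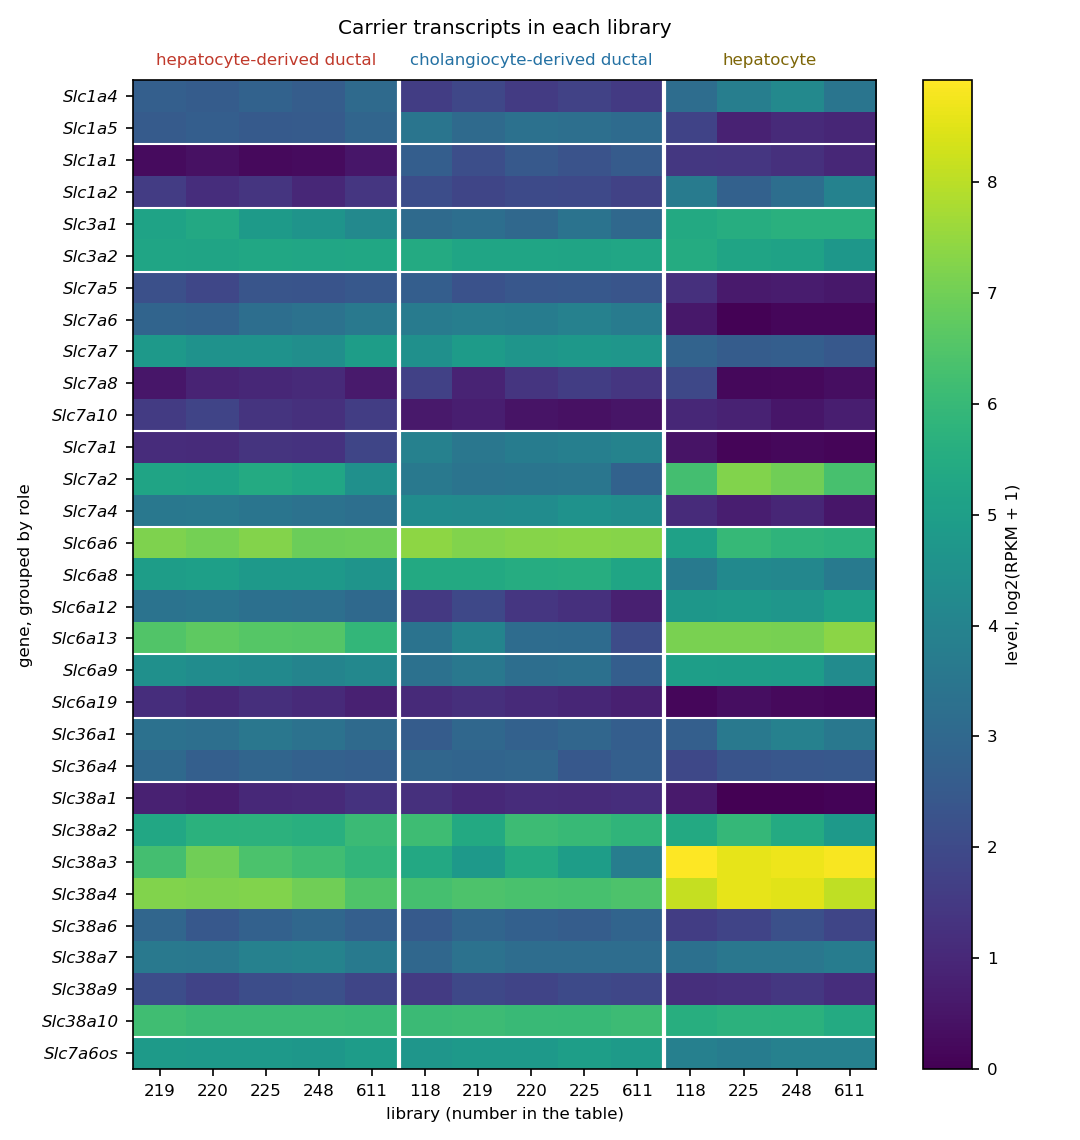
Level of each of the 31 tested genes (rows, grouped by role) in each of the 14 libraries (columns), as log2(RPKM + 1). Slc38a3 and Slc38a4 are the brightest rows in hepatocytes, Slc6a6 is the brightest row in cholangiocyte-derived ductal cells, and Slc6a12, Slc6a13, Slc7a2 and Slc3a1 are brighter in hepatocyte-derived than in cholangiocyte-derived ductal libraries.

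Carrier transcripts were most abundant in hepatocytes, and each population had its own leading carriers. Summed over the 57 carriers, levels were 816 ± 79.6 RPKM in hepatocyte-derived ductal cells (SD, n = 5), 639 ± 27.0 in cholangiocyte-derived ductal cells (SD, n = 5) and 1360 ± 77.0 in hepatocytes (SD, n = 4), with no overlap between groups. Slc38a3, a glutamine carrier, and Slc38a4, a system A carrier of small neutral amino acids, made up 31.8% and 23.7% of the hepatocyte sum. The taurine carrier Slc6a6 led in both ductal groups, at 16.5% of the sum in hepatocyte-derived and 24.6% in cholangiocyte-derived cells. In the hepatocyte-derived cells Slc38a4 (16.2%), Slc6a13 (10.7%) and Slc38a3 (10.1%) came next, and in the cholangiocyte-derived cells Slc38a4 (12.6%), Slc38a10 (10.3%) and Slc38a2 (9.38%). The light chains of the heteromeric carriers held 4.93 ± 1.23%, 7.0 ± 0.55% and 0.584 ± 0.217% of the sum in the 3 groups (SD).

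Of the 58 symbols, 31 passed the filter on low values and were tested, 30 of them carriers. Of the 27 that did not, 5 (Slc6a5, Slc6a11, Slc6a18, Slc7a12 and Slc7a14) were listed at 0 in every library, and the other 22 reached at most 1.16 RPKM, the value of Slc7a3 in cholangiocyte-derived library 225. The 3 monoamine carriers, which clear noradrenaline, dopamine and serotonin (Slc6a2, Slc6a3 and Slc6a4), were among them, with a highest value of 0.26 RPKM for Slc6a4 in hepatocyte library 118. So were Slc6a11, a GABA carrier of brain, and Slc1a3, Slc1a6 and Slc1a7, glutamate carriers of brain and retina, each at 0.08 RPKM or less.

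In hepatocyte-derived ductal cells against hepatocytes, 16 of the 31 tested genes (51.6%) rose and 10 (32.3%) fell, where 66.2% of all tested genes rose and 14.8% fell. Libraries did not overlap for 16 genes above and 9 below, against 59.9% and 12.4% of all genes. Their median log2 fold change was 0.48, and that of all tested genes 0.67. In cholangiocyte-derived ductal cells against hepatocytes, 18 (58.1%) rose and 11 (35.5%) fell, where 67.1% of all genes rose and 17.4% fell; libraries did not overlap for 16 above and 9 below, against 60.5% and 14.7%. The median was 0.51, beside 0.76 for all genes.

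These 2 comparisons share the 4 hepatocyte libraries and therefore cannot be read as independent. As deposited, all genes together lie above 0 in both, so directions near 0 depend on the scaling. After rescaling the libraries by median ratios the median of all genes was 0.01 in the first comparison, and 10 of 30 members rose and 15 fell (Slc6a19 no longer passed the filter), where 37.2% of all genes rose and 36.8% fell. In the second comparison 11 rose and 14 fell after rescaling, where 40.3% and 38.4% of all genes did. Quantile normalization gave 9 up and 15 down, where 36.4% and 32.7% of all genes went up and down, and 10 up and 16 down, where 38.7% and 37.7% did. In both comparisons and under these 3 scalings a smaller share of members than of all genes rose and a larger share fell.

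Between the ductal populations, 11 of the 31 genes (35.5%) were higher in hepatocyte-derived cells and 7 (22.6%) lower, where 15.1% of all tested genes were higher and 21.0% lower. Libraries did not overlap for the same numbers, 11 above and 7 below, against 13.4% and 20.4% of all genes. The counts after rescaling were again 11 and 7 (17.0% and 18.7% of all genes), and after quantile normalization 12 and 6 (24.3% and 19.0%). The mean of the hepatocyte-derived cells lay between those of the other groups for 21 of the 31 genes, an order that 59.7% of all tested genes showed.

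**Figure D2:**
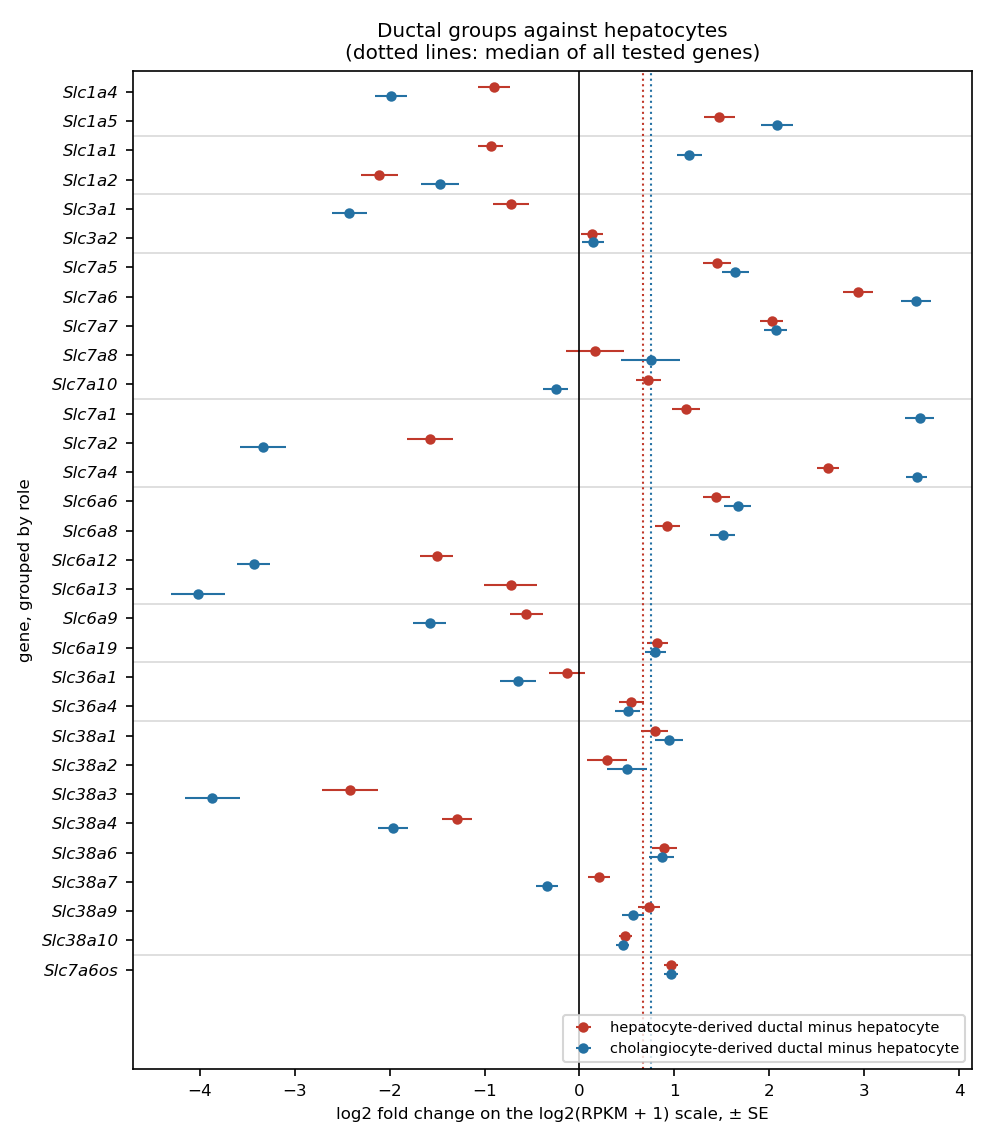
Log2 fold change of each tested gene in hepatocyte-derived (red) and cholangiocyte-derived (blue) ductal cells against the same 4 hepatocyte libraries, with its SE as a bar and the median of all tested genes as a dotted line (0.67 and 0.76). Slc38a3, Slc6a12, Slc6a13, Slc7a2 and Slc3a1 lie far to the left, with the blue point beyond the red, and Slc7a1, Slc7a4 and Slc7a6 lie far to the right.

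Among the Slc38 carriers, the hepatocyte carriers Slc38a3 and Slc38a4 were lower in both ductal populations and higher in hepatocyte-derived than in cholangiocyte-derived ones. Slc38a3 (SNAT3; NM_001199217, chr9:107553486-107569730, minus strand, mm9) moves glutamine, histidine and asparagine with sodium in exchange for protons. It was measured at 74.9, 125, 83.8, 71.5 and 57.3 RPKM in the hepatocyte-derived, 40.4, 27.6, 43.0, 30.3 and 12.8 in the cholangiocyte-derived and 482, 384, 413 and 449 in the hepatocyte libraries. Every library of a group lay apart from those of the other groups, the hepatocyte libraries highest and the cholangiocyte-derived lowest, with library 611 the lowest of each ductal group. Against hepatocytes its mean was 5.23-fold lower in hepatocyte-derived ductal cells, a log2 difference of -2.42 (SE 0.29, adjusted p = 2.34e-06), and 14-fold lower in cholangiocyte-derived cells, a difference of -3.87 (SE 0.29, adjusted p = 1.10e-08). Between the ductal groups it was 2.68-fold higher in hepatocyte-derived cells, a log2 difference of 1.45 (SE 0.27, adjusted p = 0.000718).

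Slc38a4 (SNAT4; NM_027052, chr15:96825254-96886387, minus strand, mm9) is a sodium-driven carrier of alanine and other small neutral amino acids that is abundant in liver. Its levels were 149.6, 147, 150.5, 126 and 87.8 RPKM in the hepatocyte-derived, 76.8, 84.7, 80.2, 78.2 and 84.0 in the cholangiocyte-derived and 280.4, 383, 361 and 264 in the hepatocyte libraries. The groups did not overlap, although hepatocyte-derived library 611 came close to the cholangiocyte-derived libraries, which lay within a narrow range. The log2 difference from hepatocytes was -1.29 (SE 0.15, adjusted p = 2.37e-06) in hepatocyte-derived and -1.97 (SE 0.15, adjusted p = 1.88e-08) in cholangiocyte-derived ductal cells, and that between the ductal groups was 0.68 (SE 0.15, adjusted p = 0.00200).

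Slc38a2 (SNAT2), the system A carrier that cells raise when amino acids are scarce, lies beside Slc38a4 and Slc38a1 on chromosome 15. Its libraries overlapped between all groups, at 39.6 to 66.5 RPKM in hepatocyte-derived, 42.1 to 69.3 in cholangiocyte-derived and 27.1 to 60.5 in hepatocyte libraries. It was called only in cholangiocyte-derived cells against hepatocytes, at 0.50 (SE 0.21, adjusted p = 0.0356), and that difference turned to -0.32 on rescaling. The call was also lost without cholangiocyte-derived library 118, 220 or 225 or hepatocyte library 118, 248 or 611 (adjusted p from 0.0532 to 0.147), and hepatocyte-derived cells were called against hepatocytes without hepatocyte library 225 (log2 difference 0.47, adjusted p = 0.0425). After rescaling Slc38a2 was instead called lower in hepatocyte-derived cells (-0.50, adjusted p = 0.0447). Under quantile normalization it was not called there (0.10, adjusted p = 0.672). Slc38a10, a carrier whose substrates are less settled, was at 65.4 to 71.5, 62.6 to 68.5 and 42.8 to 51.9 RPKM in the 3 groups. It was 0.48 and 0.45 above hepatocytes on the log2 scale as deposited and -0.31 and -0.37 after rescaling, each of the 4 values called. Under quantile normalization the differences were 0.37 and 0.37, also called (adjusted p = 0.000134 and 0.000112), so the 2 scalings gave opposite directions.

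Slc38a7, a lysosomal glutamine carrier, was higher in hepatocyte-derived (10.8 to 14.7 RPKM) than in cholangiocyte-derived cells (6.96 to 9.31 RPKM), at 0.55 (SE 0.11, adjusted p = 0.000902), with no overlap. In hepatocyte-derived cells against hepatocytes it was 0.21 (SE 0.11, adjusted p = 0.104), and passed without hepatocyte library 611 (0.28, adjusted p = 0.041). The same difference was called lower on rescaling (-0.54, adjusted p = 0.00103) and under quantile normalization (-0.53, adjusted p = 0.00112). In cholangiocyte-derived cells Slc38a7 was called lower than in hepatocytes as deposited (-0.34, SE 0.11, adjusted p = 0.0118). Slc38a9, the lysosomal arginine sensor of the mTORC1 pathway, and Slc38a6 did not pass the test between the ductal groups. Both were above hepatocytes as deposited, Slc38a9 by 0.74 and 0.56 and Slc38a6 by 0.90 and 0.87, but neither was called after rescaling and both turned negative under quantile normalization. There Slc38a9 was called lower in both ductal groups (-0.30 and -0.76, adjusted p = 0.0485 and 8.41e-05). Slc38a6 was called lower there only in cholangiocyte-derived cells (-0.31, adjusted p = 0.0399). Slc38a1 (SNAT1) stayed low, at 0.63 to 1.46, 1.06 to 1.34 and 0.01 to 0.56 RPKM. Its log2 difference from hepatocytes was 0.79 (SE 0.15, adjusted p = 0.000158) and 0.94 (SE 0.15, adjusted p = 2.66e-05) in the 2 ductal groups. Neither call held under quantile normalization, where the second difference was -0.06, and the ratio of means to hepatocytes moved from 6.21 to 37.3 and from 7.47 to 44.9 without hepatocyte library 118, the highest of its group.

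**Figure D3:**
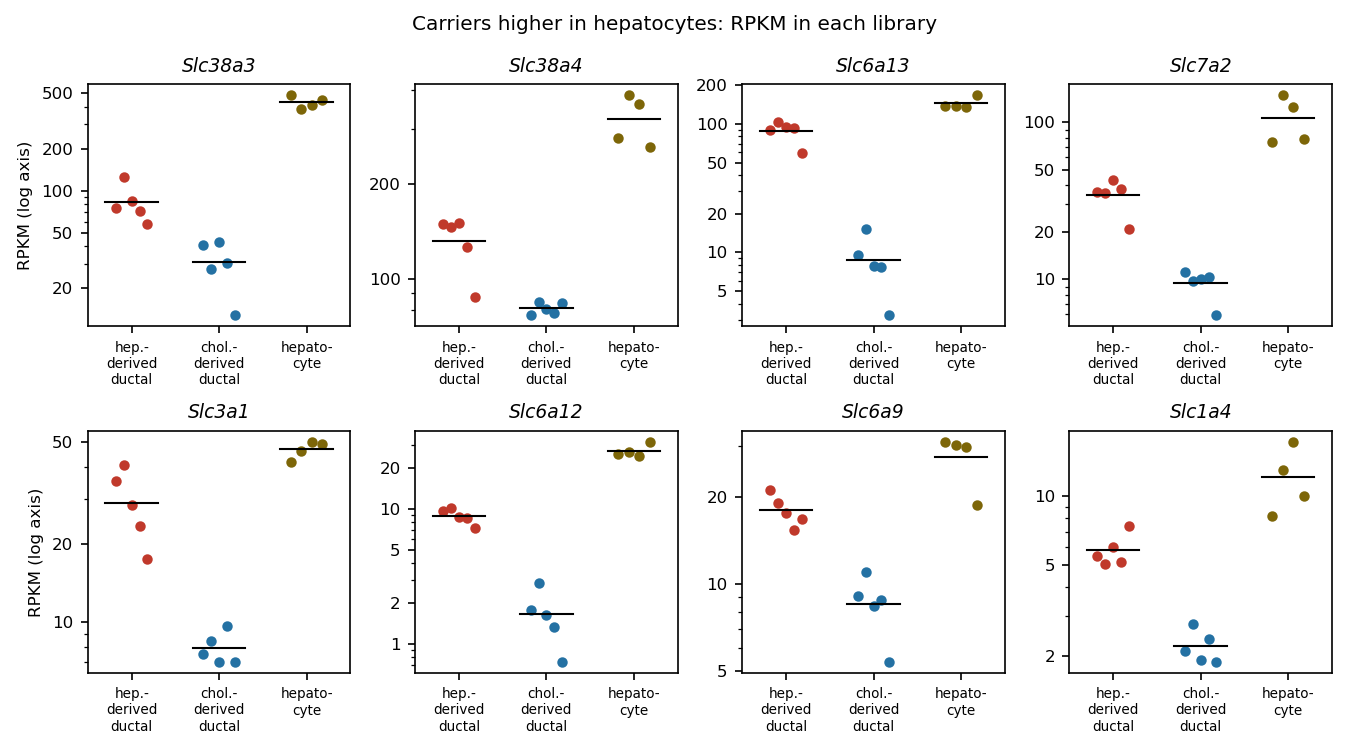
RPKM (log axis) in each library of 8 carriers that were higher in hepatocytes than in both ductal groups; each point is a library and each line the mean of its group. In every panel the hepatocyte-derived ductal libraries lie above the cholangiocyte-derived ones, and Slc6a13 shows the widest step between them, with 59.0 to 103 against 3.25 to 15.2 RPKM.

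The GABA and osmolyte carriers of the Slc6 family moved in opposite directions: those for GABA and betaine were lower, and those for taurine and creatine higher, in ductal cells than in hepatocytes. Slc6a13 (GAT2; NM_144512, chr6:121250314-121287736, plus strand, mm9) takes up GABA and taurine and is the main GABA carrier of liver. It was measured at 89.5, 103, 94.5, 92.1 and 59.0 RPKM in the hepatocyte-derived, 9.55, 15.2, 7.82, 7.76 and 3.25 in the cholangiocyte-derived and 138, 137, 135 and 166 in the hepatocyte libraries. Each group lay apart from the others. The hepatocyte-derived cells stood nearer to the hepatocytes than the cholangiocyte-derived cells did, and library 611 was the lowest of each ductal group and the highest of the hepatocytes. Its mean was 10.1-fold higher in hepatocyte-derived than in cholangiocyte-derived ductal cells, a log2 difference of 3.29 (SE 0.27, adjusted p = 2.66e-07), the largest on the log2(RPKM + 1) scale between the ductal groups among the tested members (the ratio of means was larger for Slc1a1). Against hepatocytes it was 16.5-fold lower in cholangiocyte-derived cells (-4.02 (SE 0.28, adjusted p = 5.43e-09)) and 1.64-fold lower in hepatocyte-derived cells (-0.73 (SE 0.28, adjusted p = 0.0283)). The last call was lost under quantile normalization (log2 difference -0.47, adjusted p = 0.178), without hepatocyte-derived library 611 (adjusted p = 0.0733) or hepatocyte library 611 (adjusted p = 0.0718), and without the 3 libraries richest in macrophage transcripts (adjusted p = 0.0571). It was kept after rescaling by median ratios, where the difference was larger, at -1.52 (adjusted p = 0.000197), so its size depends on the scaling.

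Slc6a12 (BGT1; NM_133661, chr6:121296715-121315791, plus strand, mm9), a carrier of betaine and GABA, follows Slc6a13 on the same strand. Its levels were 9.63, 10.1, 8.73, 8.58 and 7.26 RPKM in the hepatocyte-derived, 1.78, 2.84, 1.64, 1.34 and 0.74 in the cholangiocyte-derived and 25.4, 26.3, 24.8 and 31.4 in the hepatocyte libraries. The 3 groups formed separate steps, the hepatocyte-derived ductal cells between the others. The log2 difference was 1.93 (SE 0.17, adjusted p = 4.78e-07) between the ductal groups, -1.51 (SE 0.18, adjusted p = 1.73e-06) for hepatocyte-derived cells against hepatocytes and -3.43 (SE 0.18, adjusted p = 1.93e-10) for cholangiocyte-derived cells against hepatocytes.

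Promoters of 41 of the 58 symbols, and of 23 of the 31 tested, were found in the RefSeq promoter table of build GRCm38.p6, which is not the build of the expression table. Windows from 250 bases before to 50 bases after each start were searched on both strands for 4 motifs: TGATGNAA (the core of an amino acid response element), GGAATG (TEAD), GTTAAT (an HNF1 half-site) and AAGTCCA (HNF4). They were held by 3 (7.69%), 6 (15.4%), 4 (10.3%) and 2 (5.13%) of the 39 promoters of tested members, beside 3.97%, 14.7%, 7.1% and 4.17% of all 32851 promoters. A symbol can have several promoters, and by symbol 2, 5, 4 and 2 of the 23 tested symbols held them. The promoters with TGATGNAA were those of Slc1a4 and Slc7a7, and overlapping windows of Slc7a7 shared a site that is counted in each. Printed here are the 250 bases before the most upstream start of the members with the largest difference between ductal groups in each direction on the log2(RPKM + 1) scale (Slc6a13 and Slc7a1) and of the other tested member with the HNF4 letters (Slc3a1). Capitals mark GGAATG in Slc6a13 (chr6:121300038-121300287, plus strand) and AAGTCCA in Slc7a1 (chr5:148399905-148400154, minus strand) and Slc3a1 (chr17:85028097-85028346, plus strand).
Slc6a13: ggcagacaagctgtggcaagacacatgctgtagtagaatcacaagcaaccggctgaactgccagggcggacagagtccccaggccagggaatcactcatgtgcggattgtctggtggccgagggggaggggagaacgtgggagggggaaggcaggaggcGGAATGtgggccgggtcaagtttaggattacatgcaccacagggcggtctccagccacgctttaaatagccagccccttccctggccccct
Slc7a1: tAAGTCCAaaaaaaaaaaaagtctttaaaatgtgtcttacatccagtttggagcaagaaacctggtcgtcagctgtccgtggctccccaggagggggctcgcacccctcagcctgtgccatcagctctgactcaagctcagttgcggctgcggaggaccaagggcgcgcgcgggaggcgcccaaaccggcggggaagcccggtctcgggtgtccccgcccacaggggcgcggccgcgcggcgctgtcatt
Slc3a1: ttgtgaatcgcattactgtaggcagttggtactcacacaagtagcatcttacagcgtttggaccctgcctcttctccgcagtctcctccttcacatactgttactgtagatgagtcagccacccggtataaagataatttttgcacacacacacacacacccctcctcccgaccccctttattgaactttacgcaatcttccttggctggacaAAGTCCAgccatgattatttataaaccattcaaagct
The letters of the HNF4 motif thus stand in the promoter of 1 gene that was lower in ductal cells than in hepatocytes, Slc3a1, and of 1 that was higher, Slc7a1, and binding was not measured.

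Slc6a6 (TauT; NM_009320, chr6:91634061-91709057, plus strand, mm9) brings taurine into cells, where it serves as an osmolyte and, in liver, for bile acid conjugation. It was found at 146, 133, 153, 120.0 and 123 RPKM in the hepatocyte-derived, 168, 149, 155, 159 and 156 in the cholangiocyte-derived and 33.0, 61.1, 54.4 and 51.6 in the hepatocyte libraries. Both ductal groups lay above every hepatocyte library and overlapped each other. The log2 difference from hepatocytes was 1.44 (SE 0.14, adjusted p = 2.77e-07) in hepatocyte-derived and 1.67 (SE 0.14, adjusted p = 4.20e-08) in cholangiocyte-derived cells, and that between the ductal groups was -0.23 (SE 0.13, adjusted p = 0.216). Without hepatocyte library 118 this last difference was called at the same size (adjusted p = 0.0268). The creatine carrier Slc6a8 was measured at 30.3, 31.4, 27.5, 26.6 and 23.5 RPKM in the hepatocyte-derived, 42.2, 41.5, 44.4, 45.7 and 36.6 in the cholangiocyte-derived and 11.7, 17.6, 16.6 and 11.5 in the hepatocyte libraries, in 3 ranges that did not overlap. It was 1.51-fold lower in hepatocyte-derived than in cholangiocyte-derived cells (-0.58 (SE 0.12, adjusted p = 0.00147)). Against hepatocytes its log2 difference was 1.51 (SE 0.13, adjusted p = 4.14e-08) in cholangiocyte-derived cells and 0.93 (SE 0.13, adjusted p = 9.52e-06) in hepatocyte-derived cells, and the latter was 0.16 and not called after rescaling.

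Of the glycine and neutral amino acid carriers of Slc6, 2 of 10 were tested. Slc6a9 (GlyT1), which takes up glycine, was at 21.2, 19.1, 17.6, 15.4 and 16.8 RPKM in the hepatocyte-derived, 9.10, 11.0, 8.37, 8.84 and 5.39 in the cholangiocyte-derived and 31.0, 30.2, 29.6 and 18.8 in the hepatocyte libraries. Hepatocyte library 611 lay within the range of the hepatocyte-derived ductal cells, while the cholangiocyte-derived libraries lay below all others. Its log2 difference was 1.02 (SE 0.17, adjusted p = 0.000214) between the ductal groups, -0.56 (SE 0.18, adjusted p = 0.00921) for hepatocyte-derived cells against hepatocytes and -1.58 (SE 0.18, adjusted p = 9.00e-07) for cholangiocyte-derived cells against hepatocytes. Slc6a19 (B0AT1), the apical neutral amino acid carrier of kidney and gut, stayed at 0.75 to 1.28, 0.73 to 1.28 and 0.11 to 0.25 RPKM. It was called higher in both ductal groups as deposited, fell below the filter after rescaling, and turned negative under quantile normalization. There it was called lower in cholangiocyte-derived cells (-0.38, adjusted p = 0.0353) and not called in hepatocyte-derived cells.

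Among the cationic carriers, which import arginine, lysine and ornithine, Slc7a2 was highest in hepatocytes and Slc7a1 in cholangiocyte-derived ductal cells, as was their relative Slc7a4. Slc7a2 (CAT2; NM_007514, chr8:41947721-42007424, plus strand, mm9), the arginine carrier of hepatocytes, was measured at 35.8, 35.3, 43.1, 37.6 and 21.0 RPKM in the hepatocyte-derived, 11.2, 9.70, 10.1, 10.4 and 5.91 in the cholangiocyte-derived and 75.4, 148, 126 and 78.2 in the hepatocyte libraries. No group overlapped another, and library 611 was the lowest of both ductal groups. Its mean was 11.3-fold lower in cholangiocyte-derived cells than in hepatocytes (-3.33 (SE 0.24, adjusted p = 7.35e-09)) and 3.09-fold lower in hepatocyte-derived cells (-1.58 (SE 0.24, adjusted p = 2.68e-05)). Between the ductal groups the log2 difference was 1.75 (SE 0.23, adjusted p = 2.53e-05).

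Slc7a1 (CAT1; NM_007513, chr5:149138986-149211480, minus strand, mm9), the cationic carrier of most other cells, showed the reverse. Its levels were 1.18, 1.14, 1.52, 1.5 and 2.65 RPKM in the hepatocyte-derived, 14.2, 10.6, 12.3, 13.4 and 15.04 in the cholangiocyte-derived and 0.38, 0.09, 0.13 and 0.10 in the hepatocyte libraries. The cholangiocyte-derived libraries stood far above the rest, the hepatocyte-derived ones were low, and the hepatocyte ones lowest, with library 118 the highest of that group. The log2 difference was -2.46 (SE 0.14, adjusted p = 9.16e-09) between the ductal groups, an 8.20-fold lower mean in hepatocyte-derived cells, and 3.58 (SE 0.15, adjusted p = 2.89e-11) for cholangiocyte-derived cells against hepatocytes. For hepatocyte-derived cells against hepatocytes it was 1.12 (SE 0.15, adjusted p = 7.50e-06), a call lost under quantile normalization. The ratio of means to hepatocytes was 74.8 in cholangiocyte-derived and 9.13 in hepatocyte-derived cells, and 123 and 15 without hepatocyte library 118.

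Slc7a4, a relative of the cationic carriers whose transport activity is not settled (NM_144852, chr16:17572111-17576764, minus strand, mm9), was at 10.8, 11.2, 10.1, 9.36 and 8.47 RPKM in the hepatocyte-derived, 19.4, 18.8, 19.3, 22.2 and 20.1 in the cholangiocyte-derived and 1.15, 0.69, 0.93 and 0.44 in the hepatocyte libraries. The groups were tightly clustered and did not overlap, the cholangiocyte-derived cells highest. Its log2 difference from hepatocytes was 3.55 (SE 0.11, adjusted p = 2.30e-12) in cholangiocyte-derived and 2.62 (SE 0.11, adjusted p = 8.00e-11) in hepatocyte-derived cells, and -0.93 (SE 0.11, adjusted p = 7.53e-06) between the ductal groups.

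Of the heteromeric carriers, the heavy chain Slc3a1 was lower and several light chains were higher in ductal cells than in hepatocytes. The other heavy chain, Slc3a2 (4F2hc, also CD98), the partner of most light chains, was found at 37.1, 36.1, 38.4, 37.7 and 39.0 RPKM in the hepatocyte-derived, 42.6, 36.6, 36.8, 35.6 and 37.9 in the cholangiocyte-derived and 43.4, 36.2, 34.4 and 25.3 in the hepatocyte libraries. All groups overlapped and it was called in none of the 3 comparisons, with log2 differences of 0.13 and 0.14 from hepatocytes (adjusted p = 0.295 and 0.265) that turned to -0.65 and -0.68, both called, after rescaling. Without hepatocyte library 118 they were 0.25 and 0.25, also called (adjusted p = 0.0323 and 0.0277), so the direction depends on the scaling. Slc3a1 (rBAT; NM_009205, chr17:85427687-85463581, plus strand, mm9), the heavy chain of the cystine and dibasic amino acid exchanger, was measured at 35.2, 40.6, 28.3, 23.6 and 17.5 RPKM in the hepatocyte-derived, 7.55, 8.42, 7.03, 9.62 and 7.02 in the cholangiocyte-derived and 41.7, 45.9, 49.9 and 49.2 in the hepatocyte libraries. The hepatocyte-derived cells ran from close below the hepatocytes down to library 611, and stayed above every cholangiocyte-derived library. The log2 difference was 1.70 (SE 0.18, adjusted p = 3.09e-06) between the ductal groups, -0.72 (SE 0.19, adjusted p = 0.00264) for hepatocyte-derived cells against hepatocytes and -2.42 (SE 0.19, adjusted p = 1.55e-08) for cholangiocyte-derived cells against hepatocytes. Its known light chain partner Slc7a9 was not tested, with at most 0.39 RPKM in any library, and Slc7a13, another light chain reported to pair with it in kidney, reached at most 0.03 RPKM.

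Of the 9 light chains listed, 5 were tested, and Slc7a6, Slc7a7 and Slc7a5 were higher in both ductal populations than in hepatocytes. Slc7a6 (y+LAT2; NM_178798, chr8:108692775-108722604, plus strand, mm9), which exchanges cationic for neutral amino acids with sodium, was at 6.29, 5.93, 8.22, 9.32 and 11.2 RPKM in the hepatocyte-derived, 12.2, 13.0, 12.4, 14.3 and 12.0 in the cholangiocyte-derived and 0.49, 0.03, 0.12 and 0.12 in the hepatocyte libraries. Both ductal groups lay far above the hepatocytes, and the hepatocyte-derived libraries lay below the cholangiocyte-derived ones, although library 611 came near them. The log2 difference from hepatocytes was 2.93 (SE 0.16, adjusted p = 6.23e-10) in hepatocyte-derived and 3.55 (SE 0.16, adjusted p = 4.63e-11) in cholangiocyte-derived cells, and -0.61 (SE 0.15, adjusted p = 0.00441) between the ductal groups. The last call was lost with a pseudocount of 0.1. The ratio of means to hepatocytes was 43.1 and 67.3, and 91.0 and 142 without hepatocyte library 118.

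Slc7a7 (y+LAT1; NM_011405, chr14:54989128-55036536, minus strand, mm9), the basolateral exchanger of absorbing epithelia that macrophages also express, was at 27.0, 22.6, 22.2, 20.1 and 30.5 RPKM in the hepatocyte-derived, 21.3, 28.9, 24.4, 26.0 and 24.7 in the cholangiocyte-derived and 6.10, 4.99, 5.31 and 4.48 in the hepatocyte libraries. The ductal groups overlapped each other and lay above every hepatocyte library, library 118 with its macrophage transcripts included. Its log2 difference from hepatocytes was 2.03 (SE 0.12, adjusted p = 1.86e-09) in hepatocyte-derived and 2.07 (SE 0.12, adjusted p = 8.30e-10) in cholangiocyte-derived cells, and between the ductal groups it was -0.04 (SE 0.11, adjusted p = 0.821). Slc7a5 (LAT1), an exchanger of large neutral amino acids typical of dividing cells, was at 3.49, 2.76, 4.06, 3.95 and 4.52 RPKM in the hepatocyte-derived, 5.34, 3.72, 4.41, 4.46 and 4.11 in the cholangiocyte-derived and 1.34, 0.57, 0.61 and 0.49 in the hepatocyte libraries. The ductal groups again overlapped each other above the hepatocytes, among which library 118 was highest. The log2 difference from hepatocytes was 1.45 (SE 0.15, adjusted p = 3.57e-07) and 1.64 (SE 0.15, adjusted p = 7.07e-08), and -0.19 (SE 0.14, adjusted p = 0.319) between the ductal groups. Under quantile normalization the difference of hepatocyte-derived cells from hepatocytes was 0.34, smaller but still called (adjusted p = 0.0251).

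The remaining light chains were low. Slc7a8 (LAT2) was at 0.45 to 1.10, 0.86 to 2.34 and 0.14 to 2.79 RPKM, and the highest hepatocyte value was that of library 118, the other 3 lying between 0.14 and 0.25 RPKM. It was called in cholangiocyte-derived cells against hepatocytes, at 0.75 (SE 0.31, adjusted p = 0.0342), a call lost after rescaling and quantile normalization and without any of cholangiocyte-derived libraries 118, 220, 225 and 611 or hepatocyte libraries 225, 248 and 611 (adjusted p from 0.0508 to 0.11), and its ratio of means moved from 2.05 to 9.33 without library 118. In hepatocyte-derived cells that ratio moved from 0.946 to 4.31. Without library 118 Slc7a8 was also called in hepatocyte-derived cells against hepatocytes (log2 difference 0.58, adjusted p = 0.00772) and against cholangiocyte-derived cells (-0.59, adjusted p = 0.00699). With all libraries it was called lower in hepatocyte-derived cells than in hepatocytes under quantile normalization (-0.78, adjusted p = 0.0187). After rescaling that difference was -0.12 and not called (adjusted p = 0.778), so its direction depends on the scaling. Slc7a10 (Asc-1), an exchanger of small neutral amino acids, is described with the genes outside the range of both other groups.

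**Figure D4:**
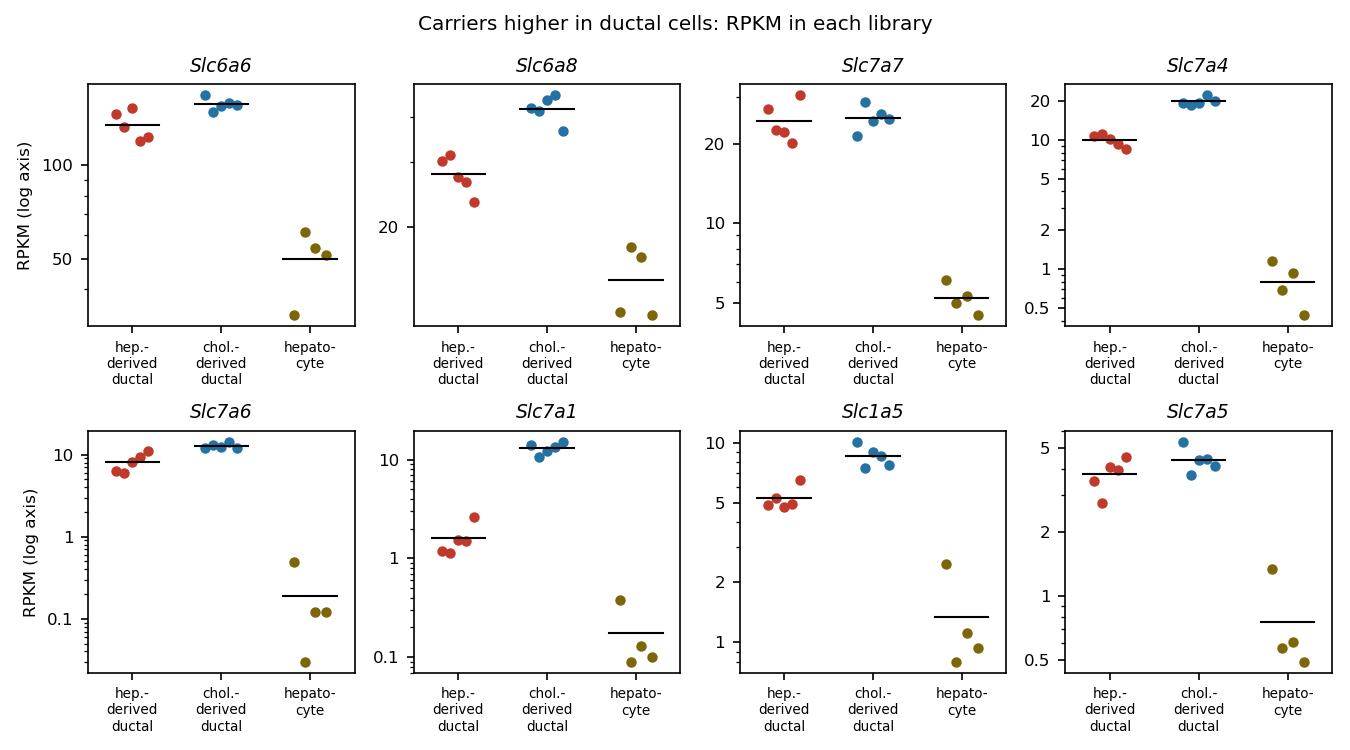
RPKM (log axis) in each library of 8 carriers that were higher in both ductal groups than in hepatocytes; each point is a library and each line the mean of its group. Slc7a1 sits at 1.14 to 2.65 RPKM in hepatocyte-derived and 10.6 to 15.04 in cholangiocyte-derived ductal cells, while Slc7a7 and Slc7a5 overlap between the ductal groups.

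The sodium-driven neutral exchangers moved against each other. Slc1a4 (ASCT1; NM_018861, chr11:20202183-20232716, minus strand, mm9), which carries alanine, serine and cysteine, was measured at 5.46, 5.06, 6.01, 5.17 and 7.41 RPKM in the hepatocyte-derived, 2.10, 2.76, 1.92, 2.38 and 1.89 in the cholangiocyte-derived and 8.15, 12.9, 17.2 and 9.98 in the hepatocyte libraries. The hepatocytes were highest and the cholangiocyte-derived cells lowest, without overlap. Its log2 difference was 1.08 (SE 0.16, adjusted p = 9.24e-05) between the ductal groups, -0.90 (SE 0.17, adjusted p = 0.000207) for hepatocyte-derived cells against hepatocytes and -1.98 (SE 0.17, adjusted p = 5.08e-08) for cholangiocyte-derived cells against hepatocytes.

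Slc1a5 (ASCT2; NM_009201, chr7:17366695-17383623, plus strand, mm9), the glutamine exchanger of proliferating cells, was at 4.88, 5.30, 4.78, 4.91 and 6.52 RPKM in the hepatocyte-derived, 10.1, 7.47, 8.97, 8.58 and 7.75 in the cholangiocyte-derived and 2.48, 0.80, 1.11 and 0.94 in the hepatocyte libraries. Here the order was the opposite, with the cholangiocyte-derived cells highest and the hepatocytes lowest, also without overlap. The log2 difference was -0.61 (SE 0.16, adjusted p = 0.00670) between the ductal groups, 1.47 (SE 0.17, adjusted p = 1.19e-06) for hepatocyte-derived cells against hepatocytes and 2.08 (SE 0.17, adjusted p = 2.09e-08) for cholangiocyte-derived cells against hepatocytes. Under quantile normalization the last 2 were smaller but still called, at 0.35 (adjusted p = 0.0499) and 0.85 (adjusted p = 0.000114).

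In 3 carriers the hepatocyte-derived ductal cells lay outside the range of both other groups, an order in which 0.633% of all tested genes were below and 5.73% above. Slc1a2 (GLT-1; NM_011393, chr2:102546595-102618263, plus strand, mm9), the glutamate carrier that the liver uses in hepatocytes around the central vein, was at 1.98, 1.24, 1.58, 1.01 and 1.68 RPKM in the hepatocyte-derived, 3.27, 2.63, 3.04, 2.91 and 2.42 in the cholangiocyte-derived and 12.1, 5.82, 8.31 and 14.5 in the hepatocyte libraries. All 5 hepatocyte-derived libraries lay below every other library, and the hepatocytes were highest and most spread. Its log2 difference was -2.11 (SE 0.20, adjusted p = 1.72e-07) for hepatocyte-derived and -1.47 (SE 0.20, adjusted p = 6.30e-06) for cholangiocyte-derived cells against hepatocytes. Between the ductal groups it was -0.63 (SE 0.19, adjusted p = 0.0151), a call lost with a pseudocount of 5, under quantile normalization and without the 3 libraries richest in macrophage transcripts.

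Slc1a1 and Slc7a10 were below the 5 RPKM set for naming and were chosen after their values were seen. Slc1a1 (EAAC1; NM_009199, chr19:28909656-28988450, plus strand, mm9), a carrier of glutamate, aspartate and cysteine, was at 0.20, 0.31, 0.17, 0.19 and 0.47 RPKM in the hepatocyte-derived, 5.32, 3.40, 4.64, 3.87 and 4.96 in the cholangiocyte-derived and 1.75, 1.64, 1.38 and 0.97 in the hepatocyte libraries. It was highest in cholangiocyte-derived cells and lowest in hepatocyte-derived cells, with hepatocytes between them and no overlap. The mean was 16.6-fold lower in hepatocyte-derived than in cholangiocyte-derived cells (-2.09 (SE 0.12, adjusted p = 1.12e-08)) and 5.35-fold lower than in hepatocytes (-0.94 (SE 0.13, adjusted p = 1.13e-05)). The difference between cholangiocyte-derived cells and hepatocytes was 1.16 (SE 0.13, adjusted p = 1.01e-06) and turned to -0.13 under quantile normalization.

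Slc7a10 was at 1.91, 2.59, 1.52, 1.38 and 2.09 RPKM in the hepatocyte-derived, 0.53, 0.68, 0.37, 0.31 and 0.41 in the cholangiocyte-derived and 1.01, 0.80, 0.47 and 0.69 in the hepatocyte libraries. Every hepatocyte-derived library lay above the other 9, which overlapped each other. Its log2 difference was 0.98 (SE 0.13, adjusted p = 2.47e-05) between the ductal groups and 0.73 (SE 0.13, adjusted p = 0.000158) for hepatocyte-derived cells against hepatocytes, the latter turning to -0.32 and called lower under quantile normalization (adjusted p = 0.0388). The difference between cholangiocyte-derived cells and hepatocytes did not pass, at -0.25 (SE 0.13, adjusted p = 0.0941). It passed after rescaling (-0.60, adjusted p = 0.000995), under quantile normalization (-1.36, adjusted p = 2.1e-07), with a pseudocount of 0.1 (adjusted p = 0.0463) and without hepatocyte library 248 (-0.33, adjusted p = 0.0459).

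**Figure D5:**
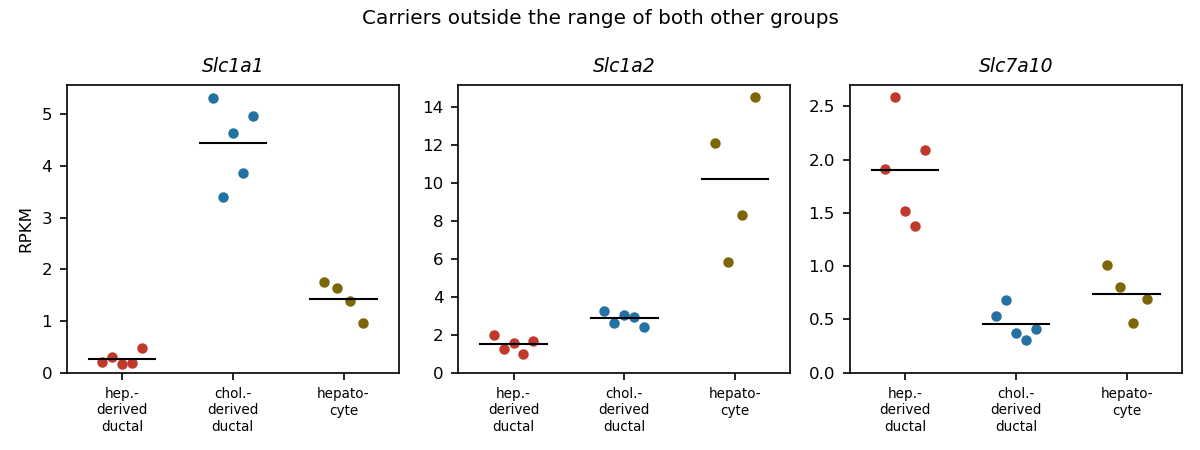
RPKM (linear axis from 0) in each library of the 3 carriers whose hepatocyte-derived ductal libraries lie outside the range of both other groups; points are libraries and lines group means. Slc1a1 runs from 0.17 to 0.47 RPKM in hepatocyte-derived ductal cells, Slc1a2 from 1.01 to 1.98 and Slc7a10 from 1.38 to 2.59.

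Of the proton-driven carriers, Slc36a1 and Slc36a4 were tested and Slc36a2 and Slc36a3 were not. Slc36a1 (PAT1), which releases small neutral amino acids from lysosomes, was at 9.14, 8.52, 10.5, 9.16 and 7.43 RPKM in the hepatocyte-derived, 5.07, 6.80, 5.88, 6.75 and 5.33 in the cholangiocyte-derived and 5.51, 11.2, 14 and 10.7 in the hepatocyte libraries. Hepatocyte library 118 lay with the cholangiocyte-derived libraries, and the other hepatocyte libraries lay above both ductal groups. It was higher in hepatocyte-derived than in cholangiocyte-derived cells (0.51 (SE 0.18, adjusted p = 0.0359)) without overlap. That call was lost when hepatocyte-derived library 219, 220, 225 or 248 or cholangiocyte-derived library 118, 220 or 611 was left out (adjusted p from 0.0551 to 0.0867). Against hepatocytes it was -0.65 (SE 0.19, adjusted p = 0.00535) in cholangiocyte-derived and -0.14 (SE 0.19, adjusted p = 0.524) in hepatocyte-derived cells, and without hepatocyte library 118 the latter was -0.38 and called (adjusted p = 0.00898). In hepatocyte-derived cells Slc36a1 was also called lower after rescaling (-0.87, adjusted p = 0.00101) and under quantile normalization (-0.92, adjusted p = 0.000135). Slc36a4 was at 5.43 to 7.19, 4.44 to 6.74 and 2.83 to 4.43 RPKM. Its differences of 0.55 and 0.51 from hepatocytes, both called, turned to -0.12 and -0.19, neither called, on rescaling. Under quantile normalization they were -0.40 and -0.61, both called (adjusted p = 0.0111 and 0.000501).

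Slc7a6os, which matches the rule by name only, lies beyond the end of Slc7a6 on the opposite strand (NM_001007567, chr8:108724338-108734833, minus strand, mm9). The spans listed do not overlap, but the kit does not mark strand, so reads of one that run into the other could not be told apart. It was at 25.7 to 29.4, 24.8 to 30.9 and 12.4 to 14.1 RPKM, 0.96 above hepatocytes on the log2 scale in each ductal group, and did not differ by the test between the ductal groups (adjusted p = 0.993), where Slc7a6 did.

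Genes that work with these carriers were read from lists chosen with earlier results of these data known. Of the 21 tested carriers of amino acids, peptides and amines in other families, 8 rose and 8 fell in hepatocyte-derived ductal cells against hepatocytes (median log2 fold change 0.07), 7 rose and 9 fell in cholangiocyte-derived cells (median 0.14), and 6 were higher and 2 lower in hepatocyte-derived than in cholangiocyte-derived cells (median 0.06). Of all tested genes 66.2% rose and 14.8% fell in the first comparison, 67.1% and 17.4% in the second, and 15.1% were higher and 21.0% lower in the third. After rescaling, 3 of these carriers rose and 12 fell in each ductal group, where 37.2% and 40.3% of all genes rose and 36.8% and 38.4% fell. Slc43a2 (LAT4), a facilitator of large neutral amino acids, averaged 88.5, 151 and 8.06 RPKM in hepatocyte-derived, cholangiocyte-derived and hepatocyte libraries, a log2 difference of 4.08 (SE 0.14, adjusted p = 5.13e-12) between the last 2. The peptide carrier Slc15a2 (PEPT2) averaged 0.494, 23.8 and 0.245 RPKM, and was lower in hepatocyte-derived than in cholangiocyte-derived cells by a log2 difference of -4.04 (SE 0.20, adjusted p = 1.72e-09). The aromatic amino acid carrier Slc16a10 (TAT1) had the other order, with 13.2, 5.86 and 31.8 RPKM and a difference of 1.07 (SE 0.15, adjusted p = 4.14e-05) between the ductal groups. Mitochondrial Slc25a13 (citrin), which serves the urea cycle, averaged 28.8, 18.3 and 88.7 RPKM, with a difference of 0.63 (SE 0.11, adjusted p = 0.000485) between the ductal groups.

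Of 12 proteins that assist or regulate the carriers, 7 rose and 3 fell in each ductal group against hepatocytes (medians 0.53 and 0.56). Over all tested genes 66.2% and 67.1% rose and 14.8% and 17.4% fell (medians 0.67 and 0.76). Between the ductal groups 4 of the 12 were higher and 4 lower (median -0.02), where 15.1% and 21.0% of all tested genes were. After rescaling, 3 rose and 6 fell in hepatocyte-derived and 4 rose and 6 fell in cholangiocyte-derived cells. Of all genes 37.2% and 40.3% then rose and 36.8% and 38.4% fell. Tmem27 (collectrin), a partner that brings B0AT1-type carriers to the surface, averaged 1.54, 6.88 and 0.00750 RPKM and was lower in hepatocyte-derived than in cholangiocyte-derived cells (-1.73 (SE 0.22, adjusted p = 1.66e-05)). Nedd4, a ubiquitin ligase, averaged 355, 292 and 111 RPKM, and the kinase Sgk2 averaged 1.85, 1.01 and 25.1 RPKM. Their log2 differences for hepatocyte-derived cells against hepatocytes were 1.69 (SE 0.11, adjusted p = 4.70e-09) and -3.15 (SE 0.21, adjusted p = 4.17e-09).

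Enzymes that use the carried substrates were mostly lower in ductal cells. Of 40 tested, 31 fell and 4 rose in hepatocyte-derived cells (median -1.22) and 29 fell and 6 rose in cholangiocyte-derived cells (median -1.77) against hepatocytes, and 19 were higher and 7 lower in hepatocyte-derived than in cholangiocyte-derived cells (median 0.31). Over all tested genes 14.8% and 17.4% fell and 66.2% and 67.1% rose against hepatocytes, and 15.1% were higher and 21.0% lower between the ductal groups. After rescaling, 33 of these enzymes fell in each ductal group, and 1 and 5 rose. Of all genes 36.8% and 38.4% then fell and 37.2% and 40.3% rose. Cdo1, cysteine dioxygenase of the taurine synthesis route, averaged 113, 63.7 and 1055 RPKM in the 3 groups, with a log2 difference of -3.24 (SE 0.19, adjusted p = 1.27e-09) for hepatocyte-derived cells against hepatocytes. Gls2, the liver glutaminase, averaged 12.1, 4.82 and 143 RPKM, with a difference of -4.64 (SE 0.22, adjusted p = 9.50e-11) for cholangiocyte-derived cells against hepatocytes. Between the ductal groups, Bcat2, a branched-chain amino acid transaminase, was lower in hepatocyte-derived cells (2.40 against 18.8 RPKM; -2.59 (SE 0.21, adjusted p = 2.35e-07)) and Maob, a monoamine oxidase, was higher (36.8 against 6.80 RPKM; 2.33 (SE 0.22, adjusted p = 1.02e-06)).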

How the data were processed

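Messenger RNA of 14 sorted-cell samples was prepared from 75 to 200 ng of total RNA with a poly-A kit that does not mark strand, per the labels' protocols. The authors deposited 1 table of RPKM values, rounded to 2 decimals, with 26005 transcript rows; reads were aligned to mm9, with Bowtie 0.12.7 and CASAVA named, per the submitters' processing notes. The counter and the handling of multiply matching reads are not stated there. Of the 14 columns, 12 matched 1 sample title each; for 2 numbered 220 no title fits (those left say 120), and they were assigned to their group only. The design text names 3 hepatocyte samples and the table holds 4, all used. No pair of libraries shared over 0.456% of identical values.

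Each symbol was represented by its row of highest mean; 11 members had several rows. Coordinates are counted from 1, since starts in the table count from 0 (end minus start was a multiple of 3 in 945 of 1125 olfactory receptor rows). RPKM keeps no read totals: depth was estimated from whole-read steps in values under 0.6 RPKM of genes spanning at most 700 bases, where 80.0 to 97.0% of values lay within 0.15 of a whole read. Transcript lengths came from GENCODE vM21.

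Tests used limma 3.58.1 on log2(RPKM + 1) (R 4.3.3; trend, 3 group means, two-sided, Benjamini-Hochberg over 12638 symbols). A log2 fold change on this scale understates the change of low genes; folds are ratios of mean RPKM. Named genes are, per comparison, up to 6 called members each way with the largest change and at least 5 RPKM in the higher group, the most abundant member of each family, members outside both other groups, and up to 4 genes per list with the smallest adjusted p. Members and lists were chosen with earlier results of these data known. Alternatives were the pseudocount, the filter, median-ratio and quantile scaling, library weights, fits on 2 groups, a replicate block, summed rows, robust moderation and leaving libraries out. The model was tested on simulated data with independent libraries and no shift shared by all genes, so that test cannot speak to the scaling. A protein alignment was not done, and 1 Slc7 gene is not reported here. Python 3.11.15 with pandas 2.3.3, numpy 2.4.6 and matplotlib 3.10.9 made tables and plots.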

Additional observations from a re-analysis of the deposited data

Results flagged for a closer look

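In 10 of 93 groups of values, 1 library stood apart from the rest of its group by Dixon's gap test at the 95% level, which chance alone gives in about 1 of 20 groups. Hepatocyte library 118, the one with macrophage and endothelial transcripts, was the highest of its group for Slc38a1 (0.56 RPKM against 0.01 to 0.05), Slc7a1 (0.38 against 0.09 to 0.13) and Slc7a8 (2.79 against 0.14 to 0.25). The part of those transcripts in these values was not tested.

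Libraries numbered 611 stood apart in 5 of the 10. Slc6a13 was lowest in hepatocyte-derived library 611 (59.04 RPKM against 89.49 to 103.47) and highest in hepatocyte library 611 (165.96 against 134.92 to 137.53). Slc7a2 was lowest in hepatocyte-derived library 611 (21.0 against 35.26 to 43.15) and in cholangiocyte-derived library 611 (5.91 against 9.7 to 11.21). Slc6a9 was lowest in hepatocyte library 611 (18.79 against 29.65 to 30.96). The other 2 were Slc38a10, highest in hepatocyte-derived library 219 (71.55 against 65.4 to 66.97), and Slc7a6os, lowest in hepatocyte library 225 (12.44 against 13.93 to 14.1).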

How the results depend on the processing

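Counts of members called higher than hepatocytes depended on the scaling. From 16 in hepatocyte-derived ductal cells they moved to 10 after median-ratio rescaling and 9 after quantile normalization, and from 18 in cholangiocyte-derived cells to 11 and 10. The other alternatives left every count within 1.5 times its value. Leaving out 1 library gave 16 to 18 higher and 9 to 11 lower in hepatocyte-derived cells against hepatocytes, 16 to 18 and 11 to 12 in cholangiocyte-derived cells, and 10 to 11 and 7 to 9 between the ductal groups. Of 2322 single-gene values under an alternative, 2228 kept their call, with the same direction where called. Another 45 lost and 26 gained a call, and 23 turned sign with a call on either side, all 23 under the 2 scalings. Values that turned sign without any call were counted among the 2228. On rescaling, hepatocyte-derived cells against hepatocytes gave -0.12 for Slc36a4, -0.31 for Slc38a10, -0.50 for Slc38a2, -0.54 for Slc38a7 and -0.65 for Slc3a2, and cholangiocyte-derived cells gave -0.19 for Slc36a4, -0.37 for Slc38a10, -0.32 for Slc38a2 and -0.68 for Slc3a2. Under quantile normalization the first comparison gave -0.40 for Slc36a4, -0.10 for Slc38a6, -0.53 for Slc38a7, -0.30 for Slc38a9, -0.067 for Slc6a19, -0.32 for Slc7a10 and -0.78 for Slc7a8, and the second -0.13 for Slc1a1, -0.61 for Slc36a4, -0.062 for Slc38a1, -0.31 for Slc38a6, -0.76 for Slc38a9, -0.38 for Slc6a19 and -0.58 for Slc7a8. The cause of these changes was not tested.

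Samples of different groups share numbers, but the labels do not say that a number marks a mouse. With the number as a replicate block, 16 members were higher and 10 lower in hepatocyte-derived cells against hepatocytes, 18 and 12 in cholangiocyte-derived cells, and 10 and 5 between the ductal groups. The block ended 3 calls between the ductal groups, of Slc1a2 (-0.44, adjusted p = 0.172), Slc36a1 (0.32, adjusted p = 0.15) and Slc7a6 (-0.49, adjusted p = 0.0653), and added that of Slc7a10 in cholangiocyte-derived cells against hepatocytes (-0.33, adjusted p = 0.0212). Among same-numbered pairs whose numbers are in the titles, deviations from the group means correlated above 0.1 in 8 of 9, from 0.0208 to 0.797. The pair numbered 220, left out of that count, correlated at 0.428. Values under 0.1 RPKM rest on few reads and 2 decimals.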

Other observations

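Genes of the amino acid response, the program that cells switch on through Atf4 when amino acids run short, did not move as a body. Of 21 tested, 10 rose and 6 fell in each ductal group against hepatocytes (median log2 fold changes 0.04 and 0.28). Over all tested genes 66.2% and 67.1% rose and 14.8% and 17.4% fell (medians 0.67 and 0.76). After rescaling 6 rose and 9 fell in hepatocyte-derived and 9 rose and 10 fell in cholangiocyte-derived cells. Of all genes 37.2% and 40.3% then rose and 36.8% and 38.4% fell. Phgdh, the entry enzyme of serine synthesis, averaged 2.13, 4.72 and 0.142 RPKM in hepatocyte-derived, cholangiocyte-derived and hepatocyte libraries, a log2 difference of 1.45 (SE 0.10, adjusted p = 4.89e-09) for the first against the last. Shmt2, a mitochondrial enzyme that turns serine into glycine, averaged 25.8, 19.5 and 101 RPKM, a difference of -1.92 (SE 0.11, adjusted p = 9.78e-10). Between the ductal groups 5 were higher and 4 lower in hepatocyte-derived cells (median -0.03), where 15.1% of all tested genes were higher and 21.0% lower. The stress-induced regulator Nupr1 was lower in hepatocyte-derived cells, at 3.84 against 42.8 RPKM (-3.14 (SE 0.31, adjusted p = 1.83e-06)), and the transcription factor Atf5 was higher, at 29.2 against 16.1 RPKM (0.84 (SE 0.17, adjusted p = 0.00108)).

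Of 26 tested genes of amino acid sensing by mTORC1, 19 rose and 1 fell in hepatocyte-derived cells against hepatocytes (median 0.46). In cholangiocyte-derived cells 17 rose and 1 fell (median 0.49). Both medians lay below the 0.67 and 0.76 of all tested genes, of which 66.2% and 67.1% rose and 14.8% and 17.4% fell. That direction turned with the scaling: after rescaling 4 rose and 14 fell, and 5 rose and 15 fell. Of all genes 37.2% and 40.3% then rose and 36.8% and 38.4% fell. Rragb, a Rag GTPase, was higher under both scalings, at 2.28, 3.13 and 0.0425 RPKM, with a difference of 1.64 (SE 0.11, adjusted p = 8.04e-09) for hepatocyte-derived cells against hepatocytes as deposited. Between the ductal groups 3 were higher and 1, Rragb, was lower in hepatocyte-derived cells (-0.34 (SE 0.11, adjusted p = 0.0244)). Of all tested genes 15.1% were higher and 21.0% lower.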
